A study of Mus musculus with 16 samples.

Results

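Interferon-stimulated genes were described in adipose tissue of lean and obese mice. The 50 genes were chosen by name, of 35556 genes with a symbol in the expression table. Each entry of the table is a RefSeq transcript, and entries were matched to symbols by their RefSeq identifiers, which gave 152 of 130343 entries for the 50 genes. A gene was represented by the entry with its highest mean level. Of the 50 genes, 30 were grouped as type I interferon response genes, 6 as GTPases induced by interferon-gamma, and the other 14 were interferon regulatory factors, PYHIN family genes and further restriction factors. Male C57BL/6J wild-type mice were kept from 10 weeks of age on a normal laboratory diet (lean) or on a high-fat diet with 42% of its kcal from fat and 0.2% cholesterol (obese) for 12 to 14 months. Inguinal subcutaneous adipose tissue (SAT, both sides pooled) and mesenteric visceral adipose tissue (VAT) were taken from 4 lean and 4 obese mice. Bulk poly(A) RNA-seq therefore gave 16 libraries in 4 groups of 4, with 1 SAT library and 1 VAT library of every mouse.

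Interferons are secreted signals of antiviral defence. Type I interferons act through the receptor IFNAR and a transcription factor complex that binds the interferon-stimulated response element and includes STAT2 and IRF9, whereas interferon-gamma, made mainly by T and NK cells, acts through the receptor IFNGR and the gamma-activated site of its target genes. Many target genes answer to both. In adipose tissue, macrophages, endothelial cells and adipocytes all carry interferon receptors, and interferon-stimulated genes are a usual part of the inflammatory expression of obese fat.

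The promoters of selected genes are shown because both binding elements can be read in them. Sequences are RefSeq promoter windows, which run from 250 bases before to 50 bases after the transcript start, and were placed on GRCm39 by exact match. The 140 bases before the start are printed for 5 type I response genes, and 30 bases around the elements for 3 GTPases, where annotated exons of other transcripts cover the longer stretch. Capitals mark every match in these stretches, on either strand, to the core of the interferon-stimulated response element (GAAANNGAA) or to the gamma-activated site (TTCNNNGAA), and matches may overlap each other.
Isg15, chr4:156285276-156285415, minus strand: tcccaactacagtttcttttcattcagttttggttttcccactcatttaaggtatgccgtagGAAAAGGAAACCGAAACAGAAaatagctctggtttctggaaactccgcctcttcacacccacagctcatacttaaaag
Ifit1, chr19:34618149-34618288, plus strand: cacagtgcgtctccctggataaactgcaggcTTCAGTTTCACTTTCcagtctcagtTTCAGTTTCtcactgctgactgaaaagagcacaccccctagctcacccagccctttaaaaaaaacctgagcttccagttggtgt
Rsad2, chr12:26506452-26506591, minus strand: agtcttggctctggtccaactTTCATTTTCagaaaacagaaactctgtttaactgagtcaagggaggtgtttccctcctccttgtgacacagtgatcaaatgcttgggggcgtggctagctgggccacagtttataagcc
Bst2, chr8:71990117-71990256, minus strand: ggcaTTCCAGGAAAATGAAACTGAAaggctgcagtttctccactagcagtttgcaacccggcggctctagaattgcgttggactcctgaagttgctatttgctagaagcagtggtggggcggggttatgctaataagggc
Oas3, chr5:120915725-120915864, minus strand: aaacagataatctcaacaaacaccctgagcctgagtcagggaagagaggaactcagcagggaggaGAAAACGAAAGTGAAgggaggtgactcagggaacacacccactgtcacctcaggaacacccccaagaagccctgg
Gbp2, chr3:142326355-142326384, plus strand: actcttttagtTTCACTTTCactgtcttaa
Igtp, chr11:58090332-58090361, plus strand: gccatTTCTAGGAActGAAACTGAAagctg
Irgm1, chr11:48762256-48762285, minus strand: tgtttcaaGAAATAGAAACCGAAactgatt
Isg15 and Ifit1 each hold 3 matches to the response element core in this stretch, and Igtp holds a gamma-activated site from 45 to 37 bases before the start, followed by a response element core from 34 to 26 bases before it. A window was found for 39 of the 50 genes. The response element core lay in the windows of 25 of these 39 genes (64.1%), of 13 of 21 type I response genes and of 5 of 5 GTPases, against 9.76% of the 27025 genes with a window. The gamma-activated site lay in 10 of the 39 (25.6%), in 4 of 21 type I response genes and in 2 of 5 GTPases, against 9.55% of all genes with a window. A match of letters is a description and not a binding site.

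**Figure D1:**
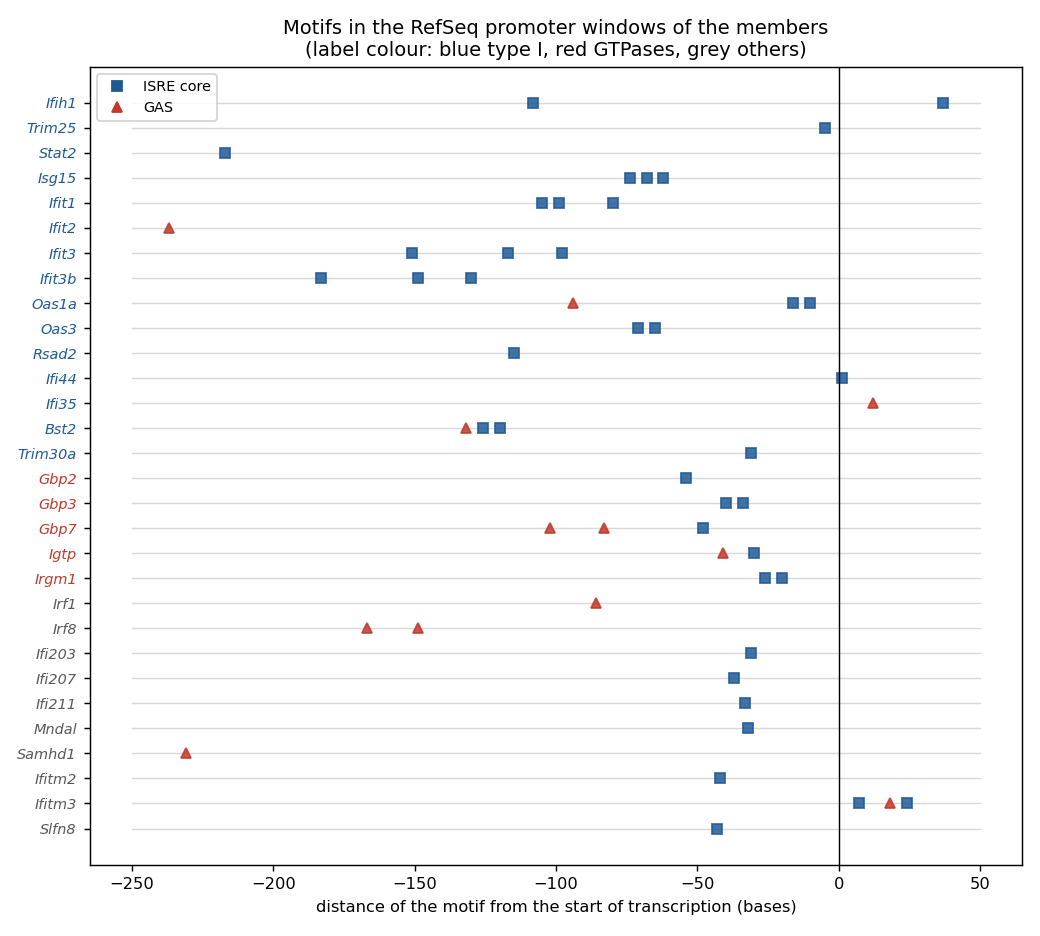
Position of matches to the response element core (GAAANNGAA) and the gamma-activated site (TTCNNNGAA) in the promoter windows of the 30 interferon-stimulated genes with a match. The horizontal axis gives bases from the transcript start, and Igtp shows both elements between 45 and 26 bases before it.

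Depth and filtering set what could be measured. Total counts ranged from 1256082 (lean VAT replicate 1) to 16614407 (obese SAT replicate 3), with medians of 9238353 in lean SAT, 15649552.5 in obese SAT, 8848332 in lean VAT and 10516879 in obese VAT. Levels are given as CPM (counts relative to the library total) scaled with TMM factors, and 13288 entries with a deposited CPM above 1 in at least 3 of 16 libraries were tested. Of the 50 genes, 36 were tested and 14 were not. The untested genes held 71 counts (Irf5) or fewer over all their entries and the 16 libraries, and Oas2, Ifi44, Mndal and Ifitm2 held 0. A count of 0 in a library allows up to 3 counts (counting error only). How reads shared by several transcripts were counted is not given in the sources used here, and a low count was therefore not read as low expression. The 14 genes with 1 entry were all tested and had a median level of 54.2 CPM, whereas 22 of the 36 genes with several entries were tested and these 36 had a median of 1.07 CPM. Oas1a passed the filter through obese libraries alone, with 0 lean and 4 obese libraries over 1 CPM, so counts over the 36 tested genes describe those genes and not the 50. The tissue labels were checked against markers. Summed over 6 adipocyte genes, including Adipoq and Plin1, the level was 7792 to 22744 CPM in every library, and summed over 6 mesothelial genes, it was 0.165 to 1.40 CPM in SAT and 243 to 593 CPM in VAT, where the mesothelium lines the depot.

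To determine the effect of the diet, SAT from obese mice was compared with SAT from lean mice. In obese SAT, 7 of the 36 tested genes were upregulated (Trim25, Oas1a, Rsad2, Rtp4, Ifi204, Ifitm3 and Slfn2) and 1 was downregulated (Igtp), at an adjusted p below 0.05. These are 19.4% and 2.78% of the 36, and 6.21% and 4.84% of all 13288 entries were upregulated and downregulated. In obese VAT relative to lean VAT, 10 of the 36 were upregulated (Zbp1, Isg15, Oas1a, Oas3, Mx1, Rsad2, Bst2, Samhd1, Ifitm3 and Slfn2) and 0 were downregulated by edgeR, which are 27.8% and 0%, against 6.84% and 4.08% of all entries. DESeq2 and limma voom called 0 downward in VAT too, and 1 of the 36 (Ifi27l2a) was lower at an unadjusted p below 0.05, as were 10.1% of all entries. Ifitm3, Rsad2 and Slfn2 were upregulated in both tissues, as was Oas1a, which was tested only because of its obese libraries. Without Oas1a, 6 of 35 genes were upregulated in SAT and 9 of 35 in VAT. Calls depended on single mice. Without 1 mouse, 2 to 7 genes were called in SAT (2 without lean replicate 3, 3 without obese replicate 3, and 5 without lean replicate 2, obese replicate 1 or obese replicate 2) and 5 to 13 in VAT (5 without obese replicate 4, and 6 without lean replicate 3 or obese replicate 2). The share of all entries called moved as well, over the same omissions, from 4.15% to 6.44% upward and 3.04% to 5.09% downward for SAT, and from 4.3% to 7.16% and 2.12% to 5.54% for VAT. The median log2 fold change of the 36 was 0.23 in SAT and 0.52 in VAT, against 0.01 and 0.02 over all entries, and only Slfn2 in VAT was called with a log2 fold change beyond 1.5, a limit passed with a call by 2.33% of all entries upward and 0.835% downward in VAT, and by 1.5% and 1.25% in SAT. In bulk tissue, more RNA of a gene per cell and more cells that express it cannot be told apart.

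Cell type markers moved with the diet too. The summed level of 8 macrophage genes, of which Lyz2, Mrc1 and Csf1r held the most counts, was 1236 to 1698 CPM in lean SAT, 1924 to 2867 in obese SAT, 2141 to 2857 in lean VAT and 4401 to 6795 in obese VAT. Of 6 tested genes of lipid-associated macrophages, 5 were upregulated in obese VAT (Trem2, Gpnmb, Cd9, Itgax and Atp6v0d2) and 2 in obese SAT (Itgax and Atp6v0d2), with medians of 3.39 and 1.09 over the 6 on the log2 scale. The remaining gene, Lpl, a lipase that adipocytes make too, was downregulated in both tissues and held most counts of this list, whose sum was 21049 to 28796 CPM in lean VAT, against 16085 to 19022 in obese VAT. T and NK cell genes (10 genes listed, 9 with an entry) summed to 6.73 to 13 CPM in lean SAT, 10.8 to 25.1 in obese SAT, 19.2 to 32.5 in lean VAT and 53.8 to 95.8 in obese VAT, and the 6 B cell genes reached 245 to 457 CPM in obese VAT against 39.9 to 276 in lean VAT. For plasmacytoid dendritic cells, the main producers of type I interferon in many infections, 6 genes summed to 0.190 to 1.73 CPM in lean SAT, 1.51 to 3.59 in obese SAT, 0.637 to 1.01 in lean VAT and 1.15 to 1.28 in obese VAT. Of these genes 1 was tested (Cox6a2, which muscle expresses too), with log2 fold changes of 1.84 (adjusted p = 0.0757) in SAT and 2.66 (adjusted p = 0.123) in VAT, and Klk1 and Pacsin1 were listed at 0 in every library. The endothelial gene Pecam1 was listed at 0 in every library too, so that no absence of a cell type was read from such values. Other markers were lower in obese VAT. Of 6 tested adipocyte genes, 4 were downregulated in obese VAT (Adipoq, Plin1, Lipe and Adrb3, by log2 fold changes of -0.58, -0.66, -0.67 and -0.97) and 1 in obese SAT (Adrb3). Their summed level was 8554 to 11957 CPM in lean VAT, against 7792 to 10138 in obese VAT. Of 4 tested genes of the intestinal epithelium, which borders the mesenteric depot, 3 were downregulated in obese VAT (Zg16, Slc5a1 and Muc2), with a median log2 fold change of -2.64 over the 4, and the 6 genes listed summed to 6.30 to 44.0 CPM in lean VAT, against 5.82 to 9.37 in obese VAT. The part of these cells in the results below was not tested.

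**Figure D2:**
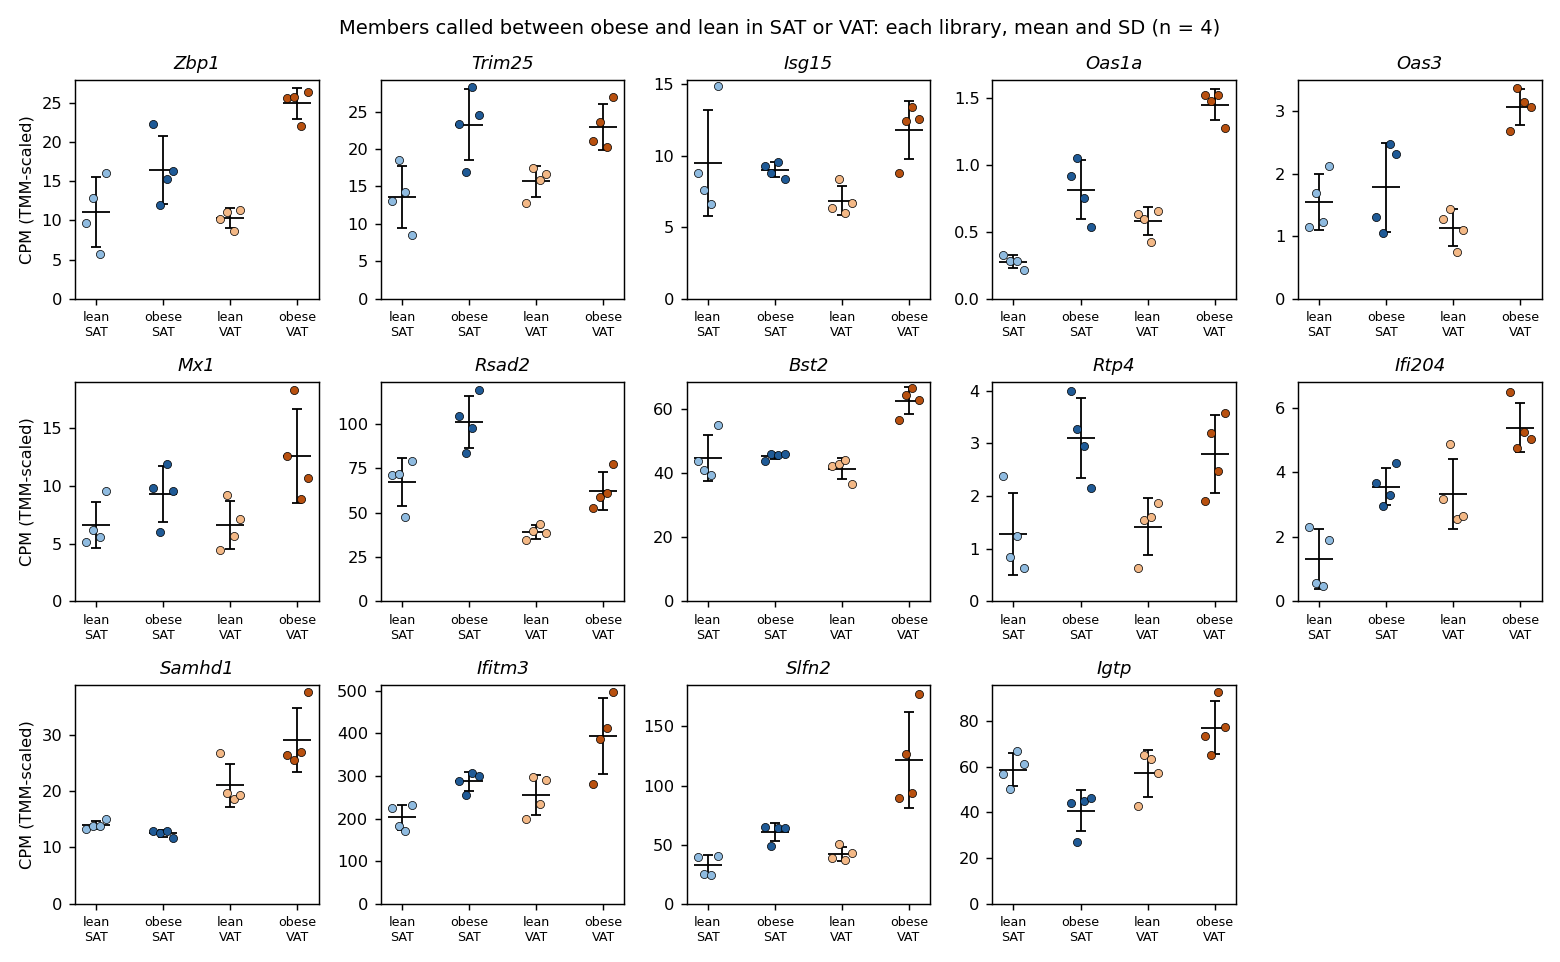
CPM of the 14 interferon-stimulated genes called in a diet comparison, 1 panel per gene. Points are the 4 libraries of each group and bars show mean ± SD. Igtp was lower in obese SAT, where all 4 libraries lie below the 4 lean ones.

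Among the sensors of viral nucleic acid, Zbp1 and Trim25 changed. Zbp1 (chr2:173033815-173060724, minus strand) encodes a sensor of Z-form nucleic acid that can trigger necroptosis. It stood at 10.2, 11.1, 8.65 and 11.3 CPM in lean VAT, against 25.6, 25.8, 22.1 and 26.4 CPM in obese VAT, so that every obese library was above every lean one. Its log2 fold change in VAT was 1.27 ± 0.24 (SE, adjusted p = 0.00110). In SAT the libraries overlapped, with 9.71, 12.9, 5.70 and 16.1 CPM in lean and 22.3, 11.9, 15.3 and 16.4 CPM in obese mice, and the log2 fold change of 0.61 ± 0.23 (SE, adjusted p = 0.0963) missed the threshold. Trim25, the ubiquitin ligase that activates the RNA sensor RIG-I, rose in SAT, from 13.1, 18.5, 14.2 and 8.48 CPM in lean to 23.3, 16.9, 28.3 and 24.6 CPM in obese mice, a log2 fold change of 0.77 ± 0.19 (SE, adjusted p = 0.0125). The obese library of replicate 2 lay below the highest lean library, and without obese replicate 3 the adjusted p was 0.0589. In VAT, Trim25 was 12.7, 17.5, 15.9 and 16.6 CPM in lean and 21.0, 23.6, 20.2 and 27.0 CPM in obese mice without overlap, yet its log2 fold change of 0.52 ± 0.20 (SE, adjusted p = 0.0996) was not called. The RNA helicases Dhx58 and Ifih1 were not called, with log2 fold changes in VAT of 1.06 (adjusted p = 0.0535) and -0.08 (adjusted p = 0.872).

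The transcription factors of the type I response showed no call. Stat2, the one of Stat2, Irf7 and Irf9 with the most counts, was 107, 94.4, 96.3 and 109 CPM in lean SAT, 106, 90.3, 108 and 90.1 in obese SAT, 132, 104, 97.9 and 108 in lean VAT and 104, 129, 122 and 122 in obese VAT. The 4 groups overlapped, and its log2 fold changes were -0.05 (adjusted p = 0.861) in SAT and 0.13 (adjusted p = 0.582) in VAT. Irf9 and Irf7, the factor that amplifies the response, had few counts on the entries used, with group means of 0.496 to 0.943 CPM and 1.51 to 1.85 CPM. Irf7 had a log2 fold change of 1.05 ± 0.55 (SE, adjusted p = 0.263) in VAT, where lean replicate 1, the shallowest library, was the highest of the lean libraries at 4.46 CPM.

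In the ISG15 system, Isg15 (chr4:156283883-156285303, minus strand), a ubiquitin-like protein attached to other proteins during the response, was 6.37, 8.35, 5.98 and 6.72 CPM in lean VAT, against 8.78, 12.4, 13.4 and 12.5 CPM in obese VAT. The libraries of the diets did not overlap in VAT, and the log2 fold change was 0.78 ± 0.22 (SE, adjusted p = 0.0240). The call was lost without lean replicate 3 or obese replicate 2, 3 or 4, with an adjusted p of up to 0.0796, and the adjusted p ranged from 0.0107 to 0.0796 over all alternatives. In SAT, Isg15 was 8.81, 7.57, 6.65 and 14.8 CPM in lean mice and 9.28, 8.76, 9.56 and 8.38 CPM in obese mice, with a log2 fold change of -0.04 ± 0.21 (SE, adjusted p = 0.944). The highest value was that of lean replicate 4. Usp18, which removes ISG15 and dampens receptor signalling, was again highest in lean replicate 4 in SAT (32.8 CPM, against 13.4 to 17.8 CPM in the other lean libraries), and its log2 fold changes were -0.36 (adjusted p = 0.425) in SAT and 0.27 (adjusted p = 0.613) in VAT.

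Lean SAT replicate 4 was the highest of the lean SAT libraries for 15 of the 23 tested type I response genes. No library of another group led in more than 11 of the 23 genes (obese SAT replicate 3). Without this mouse, 7 of all tested interferon-stimulated genes, not of the type I response genes alone, were called in SAT and 7 in VAT. Of all entries, 5.46% and 5.1% were then upregulated and 4.47% and 3.7% downregulated.

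The Ifit proteins bind viral RNA that lacks the host cap. Ifit1, the family member with the most counts, was 23.3, 30.9, 24.9 and 46.8 CPM in lean SAT and 29.7, 24.2, 37.2 and 37.7 in obese SAT, with a log2 fold change of 0.05 ± 0.22 (SE, adjusted p = 0.917). In VAT it was 31.8, 24.4, 17.2 and 22.0 CPM in lean mice and 21.8, 32.1, 38.8 and 32.1 in obese mice, with a log2 fold change of 0.46 ± 0.22 (SE, adjusted p = 0.219). The groups overlapped in both tissues. Ifit3 and its neighbouring near-copy Ifit3b, between which reads may be shared, were not called in either tissue.

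The Oas enzymes make the messenger 2'-5' oligoadenylate, which activates RNase L. Oas3 was 1.27, 1.43, 0.748 and 1.10 CPM in lean VAT, against 2.67, 3.37, 3.15 and 3.07 CPM in obese VAT, without overlap, a log2 fold change of 1.45 ± 0.35 (SE, adjusted p = 0.00809). In SAT the values of 1.15, 1.68, 1.23 and 2.12 CPM and 1.30, 1.06, 2.48 and 2.31 CPM overlapped, and the log2 fold change was 0.29 ± 0.34 (SE, adjusted p = 0.645). Oas1a had few counts throughout. It was 0.329, 0.280, 0.285 and 0.212 CPM in lean SAT, 0.920, 1.06, 0.756 and 0.538 in obese SAT, 0.637, 0.596, 0.427 and 0.661 in lean VAT and 1.53, 1.48, 1.53 and 1.28 in obese VAT, without overlap of the diets in either tissue. Its entry is a noncoding transcript model, and in lean VAT replicate 1 the value of 0.637 CPM is 1 count. The log2 fold changes were 1.46 ± 0.46 (SE, adjusted p = 0.0445) in SAT and 1.32 ± 0.42 (SE, adjusted p = 0.0435) in VAT. With the replicate number as a block the adjusted p was 0.0612 in SAT and 0.0648 in VAT. The SAT call was lost on leaving out any mouse other than obese replicate 4, and the VAT call on leaving out any mouse other than lean replicate 1. Over all alternatives, the adjusted p ranged from 0.0209 to 0.277 for SAT and 0.00687 to 0.337 for VAT.

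Among the other antiviral effectors, Rsad2 (chr12:26492745-26506451, minus strand), which encodes viperin, a producer of a chain-terminating nucleotide, rose in both tissues. It was 71.1, 71.8, 47.6 and 78.8 CPM in lean SAT and 104, 83.8, 97.5 and 119 CPM in obese SAT, a log2 fold change of 0.59 ± 0.15 (SE, adjusted p = 0.0143). In VAT it was 34.4, 39.7, 43.8 and 38.3 CPM in lean mice and 52.3, 58.6, 61.3 and 77.4 CPM in obese mice, a log2 fold change of 0.67 ± 0.16 (SE, adjusted p = 0.00713). No obese library overlapped a lean one in either tissue, and the SAT call was lost only without lean replicate 3 (adjusted p = 0.0644). Bst2 (chr8:71986895-71990114, minus strand), the tether that holds budding virus at the cell surface, rose in VAT, from 42.0, 42.7, 43.9 and 36.5 CPM to 56.5, 64.3, 66.5 and 62.6 CPM, a log2 fold change of 0.60 ± 0.13 (SE, adjusted p = 0.00260). In SAT its values of 43.7, 40.8, 39.2 and 54.9 CPM and 43.8, 45.9, 45.7 and 45.9 CPM overlapped, with a log2 fold change of 0.03 ± 0.12 (SE, adjusted p = 0.929).

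Mx1 and Rtp4 were called in 1 tissue each and stood closer to the threshold. Mx1 is named for a dynamin-like antiviral GTPase, but C57BL/6 mice carry a defective allele of it, and its entry is a noncoding RefSeq record. It was 4.46, 9.24, 5.66 and 7.16 CPM in lean VAT, against 12.6, 18.3, 8.88 and 10.7 CPM in obese VAT, where lean replicate 2 overlapped the obese libraries. The log2 fold change of 0.84 ± 0.27 (SE, adjusted p = 0.0448) was lost without lean replicate 1, 3 or 4 or obese replicate 1, 2 or 4, with an adjusted p of up to 0.210, and its adjusted p ranged from 0.0256 to 0.210 over the alternatives. Rtp4, an interferon-induced inhibitor of flavivirus replication, was 2.39, 0.841, 1.23 and 0.636 CPM in lean SAT and 3.99, 3.27, 2.96 and 2.15 CPM in obese SAT, with a log2 fold change of 1.15 ± 0.35 (SE, adjusted p = 0.0342). That call was lost without lean replicate 2, 3 or 4 or obese replicate 1, 2 or 3, with an adjusted p of up to 0.116 and a range of 0.00437 to 0.116 over the alternatives. Ifi27l2a, the type I response gene with the most counts outside the named families, was 210.3, 237, 415 and 536 CPM in lean SAT and 261, 268, 155 and 221 CPM in obese SAT. Its log2 fold changes of -0.62 (adjusted p = 0.148) in SAT and -0.62 (adjusted p = 0.163) in VAT were negative and not called.

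The PYHIN proteins sense DNA in the nucleus and cytosol. Ifi204 was 2.31, 0.561, 0.475 and 1.91 CPM in lean SAT and 3.68, 2.96, 3.3 and 4.31 CPM in obese SAT, without overlap, a log2 fold change of 1.44 ± 0.37 (SE, adjusted p = 0.0139). Without lean replicate 3 its adjusted p was 0.0616. In VAT the values of 3.18, 4.89, 2.56 and 2.64 CPM and 6.49, 4.77, 5.25 and 5.04 CPM overlapped, and the log2 fold change was 0.62 ± 0.34 (SE, adjusted p = 0.284). Ifi203 was not called, with log2 fold changes of 0.83 (adjusted p = 0.0614) in SAT and 0.74 (adjusted p = 0.0756) in VAT. PYHIN genes lie side by side on chromosome 1 and resemble each other, so that their counts may share reads.

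Among the other restriction factors, Slfn2 (chr11:82955609-82961504, plus strand), a schlafen gene that keeps T cells and monocytes quiescent and protects transfer RNA from cleavage, rose in both tissues. It was 39.8, 25.0, 24.7 and 40.7 CPM in lean SAT and 65.2, 48.9, 63.9 and 64.3 CPM in obese SAT, a log2 fold change of 0.90 ± 0.20 (SE, adjusted p = 0.00515). In VAT it was 38.9, 50.1, 37.1 and 43.2 CPM in lean mice and 89.8, 127, 93.9 and 178 CPM in obese mice, a log2 fold change of 1.52 ± 0.20 (SE, adjusted p = 2.9e-05). The obese libraries did not overlap the lean ones in either tissue, and both calls held under the 18 alternatives, leaving out each mouse included. Its promoter window held neither element. Ifitm3, which blocks the fusion of virus with endosomes, was 225, 183, 172 and 231 CPM in lean SAT and 287, 255, 307 and 299 CPM in obese SAT, without overlap, a log2 fold change of 0.50 ± 0.15 (SE, adjusted p = 0.0382). In VAT it was 199, 297, 233 and 292 CPM and 281, 387, 413 and 498 CPM, with overlap, and the log2 fold change was 0.63 ± 0.15 (SE, adjusted p = 0.00963). The SAT call was lost without lean replicate 2 or 3 or obese replicate 3 or 4 (adjusted p up to 0.133, range 0.00961 to 0.133), and the VAT call without obese replicate 4 (adjusted p = 0.0655).

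Samhd1, which hydrolyses deoxynucleotides, was 26.8, 19.7, 18.6 and 19.3 CPM in lean VAT, against 26.4, 25.6, 26.9 and 37.6 CPM in obese VAT. The groups overlapped, and the log2 fold change of 0.51 ± 0.16 (SE, adjusted p = 0.0366) was lost on leaving out any mouse other than lean replicate 1 (adjusted p up to 0.206, range 0.00929 to 0.295). In SAT it was 13.3, 13.7, 13.9 and 15 CPM in lean and 13, 12.6, 12.9 and 11.7 CPM in obese mice, and the log2 fold change of -0.16 ± 0.16 (SE, adjusted p = 0.589) was not called although the obese libraries were all lower. Sp100, Slfn8, Irf1 and Irf8 were not called. Irf8 had the largest log2 fold change of the 36 genes in VAT, 2.12 ± 0.75 (SE, adjusted p = 0.0728), on values of 2.55, 0.298, 0.214 and 0.220 CPM in lean and 3.44, 1.97, 0.955 and 1.45 CPM in obese mice that overlapped. With 2 lean and 5 obese libraries over 1 CPM, Irf8 was tested only because of its obese libraries.

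The 36 genes had 8 further tested entries. Second transcripts of Zbp1 and Sp100 rose in VAT, by log2 fold changes of 1.05 (adjusted p = 0.0225) and 1.25 (adjusted p = 0.00178), and a second transcript of Samhd1 rose in SAT, by 0.98 (adjusted p = 0.0451). The Samhd1 transcripts thus had log2 fold changes of opposite sign in SAT. Between the tissues, compared below, calls depended on the entry too. The second Sp100 transcript was higher in VAT by 1.25 (adjusted p = 0.00097) in lean and 1.85 (adjusted p = 5.7e-07) in obese mice. The Sp100 entry used here was not called, at 0.19 and 0.10. Second transcripts of Zbp1, Samhd1 and Ifi204 were not called between the tissues, unlike the entries used for these genes. How reads shared by transcripts were assigned is not given in the sources used here.

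The groups overlapped for most genes. In SAT, 7 of the 36 genes had all obese libraries above all lean libraries and 2 had them below, against 9.61% and 7.64% of all entries, and in VAT the counts were 14 and 0, against 8.35% and 5.0% of all entries.

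Type I response genes were next compared with the GTPases induced by interferon-gamma, which coat and destroy the vacuoles of intracellular parasites and bacteria. Of 23 tested type I response genes, 4 were upregulated in obese SAT and 0 were downregulated, and 18 had a log2 fold change above 0 (median 0.17, range -0.62 to 1.46), which are 17.4%, 0% and 78.3%, against 6.21%, 4.84% and 50.5% of all entries. Of 4 tested GTPases (Gbp2, Gbp3, Igtp and Irgm1), 0 were upregulated in obese SAT, by an unadjusted p below 0.05 as well, and Igtp was downregulated. Of the 4, 1 had a log2 fold change above 0 (median -0.31). In VAT, 7 of the 23 type I response genes and 0 of the 4 GTPases were upregulated, against 6.84% of all entries (6 of 22 without Oas1a, and 3 of 22 in SAT), with medians of 0.59 and 0.20, and 1 of the 4 (Igtp) was higher at an unadjusted p below 0.05, as were 13.5% of all entries. With 4 genes in the smaller group, these counts are a description.

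**Figure D3:**
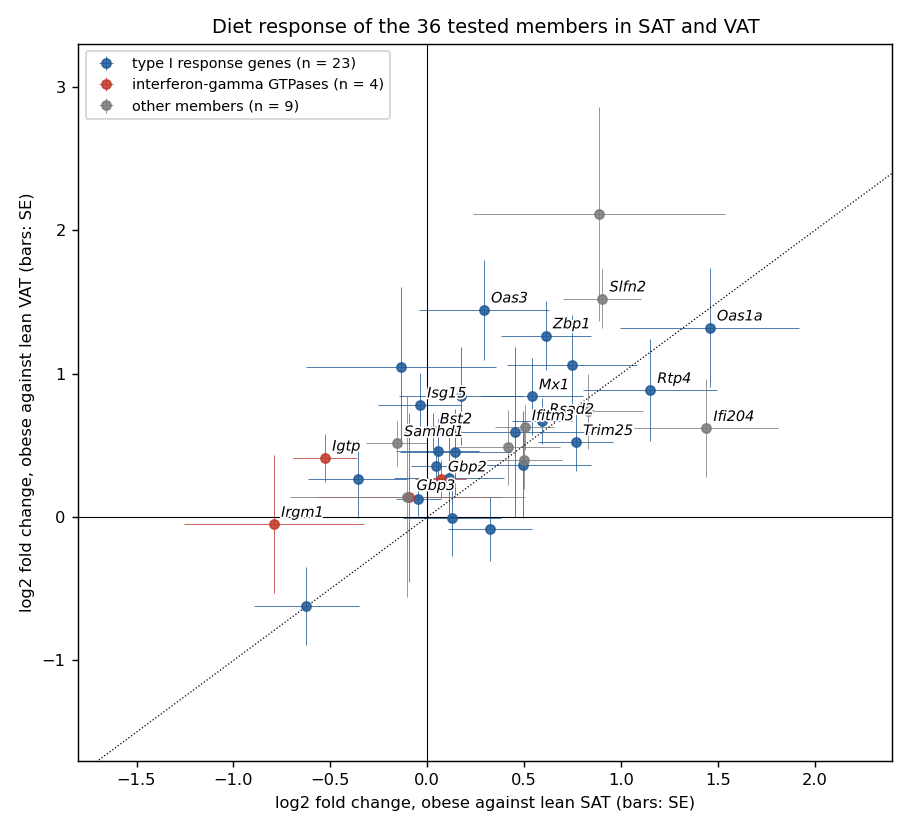
Log2 fold change of obese against lean mice in SAT (horizontal axis) and VAT (vertical axis) for the 36 tested genes, with bars of 1 SE. Colours mark 23 type I response genes, 4 GTPases and 9 others, and the dotted line marks equal change in both tissues. Igtp lies left of 0 in SAT and above 0 in VAT, and Slfn2 at 0.90 in SAT and 1.52 in VAT.

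Igtp (chr11:58089840-58098417, plus strand), which encodes the GTPase Irgm3, was 56.8, 50.1, 67.0 and 61 CPM in lean SAT and 44.1, 27.2, 45.2 and 46.1 CPM in obese SAT. Every obese library was below every lean one, and the log2 fold change was -0.53 ± 0.16 (SE, adjusted p = 0.0407). The call in SAT was lost without lean replicate 3 or 4 or obese replicate 1, 2 or 3 (adjusted p up to 0.132, range 0.0189 to 0.132). In VAT, Igtp was 42.7, 64.9, 63.3 and 57.4 CPM in lean mice and 73.3, 65.2, 92.6 and 77.3 CPM in obese mice, again without overlap but in the other direction, with a log2 fold change of 0.41 ± 0.17 (SE, adjusted p = 0.121) that missed the threshold. The annotated span of Igtp overlaps that of Irgm2, so that reads of the pair may not be fully separated.

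The other GTPases were not called in either diet comparison. Gbp2, a guanylate-binding protein, was 236, 233, 279 and 264 CPM in lean SAT, 284, 211, 269 and 298 in obese SAT, 208, 281, 288 and 297 in lean VAT and 349.8, 290.3, 367 and 292 in obese VAT. The diets overlapped within each tissue, and its log2 fold changes were 0.07 ± 0.13 (SE, adjusted p = 0.801) in SAT and 0.27 ± 0.13 (SE, adjusted p = 0.220) in VAT. Gbp3 was 1.40, 0.982, 1.71 and 2.54 CPM in lean SAT, 0.997, 1.90, 1.86 and 1.31 in obese SAT, 0.637, 1.25, 0.321 and 0.220 in lean VAT and 0, 0.740, 1.34 and 0.427 in obese VAT. Irgm1, a regulator of the other immunity-related GTPases, was 1.40, 1.68, 0.950 and 1.70 CPM in lean SAT and 0.690, 0.739, 0.481 and 1.31 CPM in obese SAT, with overlap, and its log2 fold change was -0.79 ± 0.46 (SE, adjusted p = 0.302). In VAT Irgm1 was 0.637, 1.61, 1.07 and 0.661 CPM and 0.764, 1.89, 0.382 and 1.02 CPM. Both Gbp3 and Irgm1 were near the limit of the filter. Gbp7 and Iigp1 held 19 and 16 counts over all their entries and the 16 libraries and were not tested.

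**Figure D4:**
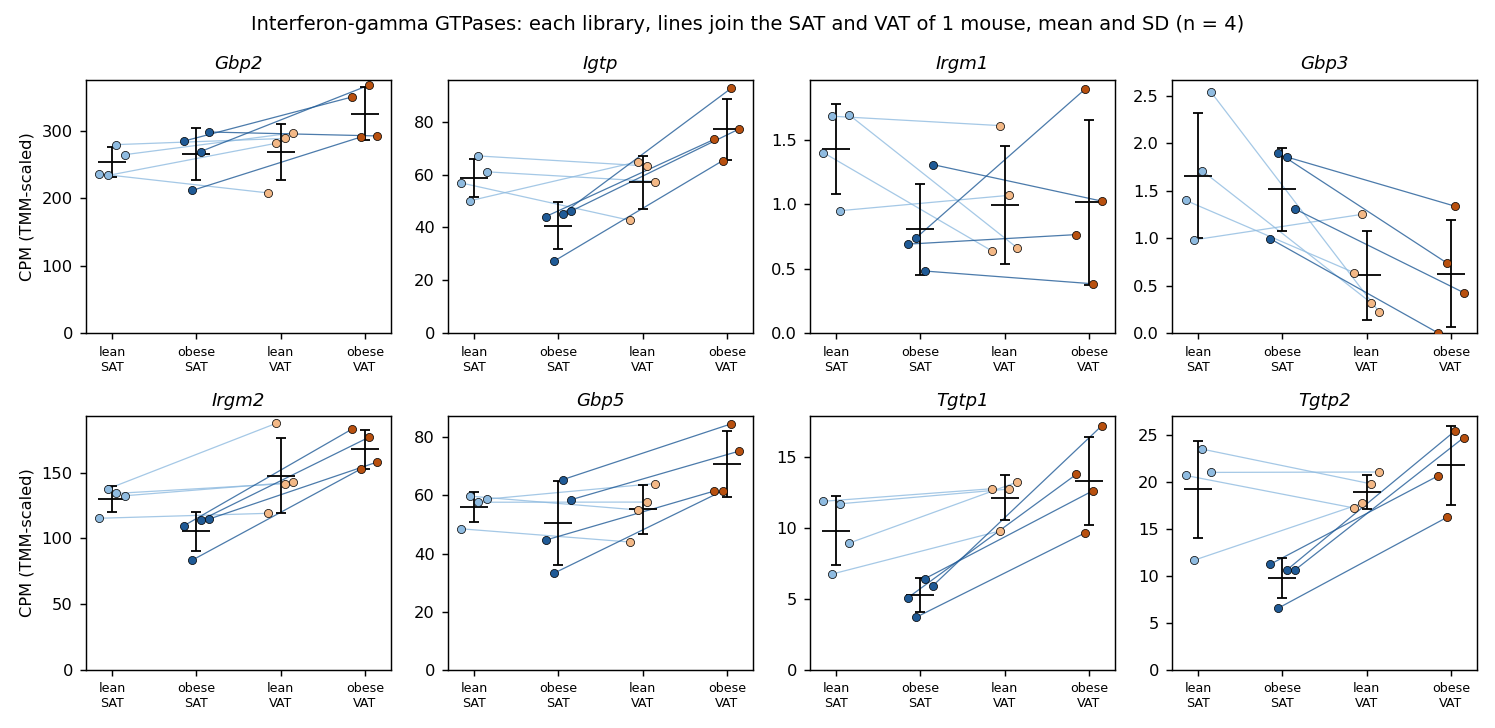
CPM of Gbp2, Igtp, Irgm1 and Gbp3 and of the related GTPases Irgm2, Gbp5, Tgtp1 and Tgtp2. Lines join the SAT and VAT libraries of 1 mouse, and colours mark lean and obese mice. The Igtp lines climb from SAT to VAT in 4 of 4 obese mice and in 1 of 4 lean mice.

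A wider list held 19 such GTPases, of which 13 were tested. In obese SAT, 4 of the 13 were downregulated and 0 were upregulated, against 4.84% and 6.21% of all entries, and 1 of the 13 (Ifi47) was higher at an unadjusted p below 0.05, as were 13.6% of all entries. Ifi47 held 3 counts in lean SAT and passed the filter through obese libraries alone, so that its difference is not read further. Beside Igtp, the downregulated genes were Gbp11, Tgtp1 and Tgtp2. Tgtp1 and Tgtp2, near-identical neighbours that may share reads, fell by 0.90 and 0.97 on the log2 scale (adjusted p = 0.0115 and 0.00375). Tgtp2 was 20.7, 11.6, 23.5 and 21.0 CPM in lean SAT and 11.2, 6.54, 10.6 and 10.6 CPM in obese SAT, so that the obese libraries were all lower. Gbp11 fell by 1.71 (adjusted p = 0.00630), from 6.26, 25.9, 17.9 and 14.6 CPM to 4.91, 4.86, 4.61 and 5.23 CPM. The call of Tgtp1 was lost without lean replicate 3 (adjusted p = 0.0533). In VAT, 0 of the 13 were called in either direction, against 6.84% of all entries upward and 4.08% downward. At an unadjusted p below 0.05 there were 3 (Gbp8 and Igtp higher, Gbp11 lower), against 13.5% of all entries higher and 10.1% lower.

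Per library, the mean log2 CPM over the 23 type I response genes was 2.91 ± 0.18 (SD, n = 4) in lean SAT and 3.19 ± 0.13 in obese SAT, and 2.77 ± 0.12 in lean VAT and 3.34 ± 0.09 in obese VAT. The 4 GTPases averaged 3.84 ± 0.18 in lean SAT and 3.51 ± 0.16 in obese SAT, and 3.40 ± 0.35 in lean VAT and 3.53 ± 0.33 in obese VAT. The type I mean was thus higher by 0.28 in obese SAT while the GTPase mean was lower by 0.33, and the SAT libraries of the diets overlapped for each of these means. In obese VAT the type I mean was higher by 0.56 without overlap, and the GTPase mean was higher by 0.13 with overlap. The difference between both means moved from -0.93 ± 0.12 to -0.32 ± 0.17 in SAT, a shift of 0.61 with no overlap between the diets, and from -0.62 ± 0.37 to -0.19 ± 0.28 in VAT, a shift of 0.43 with overlap that was 0.28 without lean replicate 2 and 0.27 with medians in place of means. With all 13 tested GTPases in place of 4, a choice made after seeing the data, the shifts were 0.60 in SAT and 0.32 in VAT. The value for SAT rests on few genes: with untested genes included it was 0.38, and with medians in place of means it was 0.79. These are values on the log2 scale with a prior count of 2 and carry no test, because the genes were chosen with results known.

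**Figure D5:**
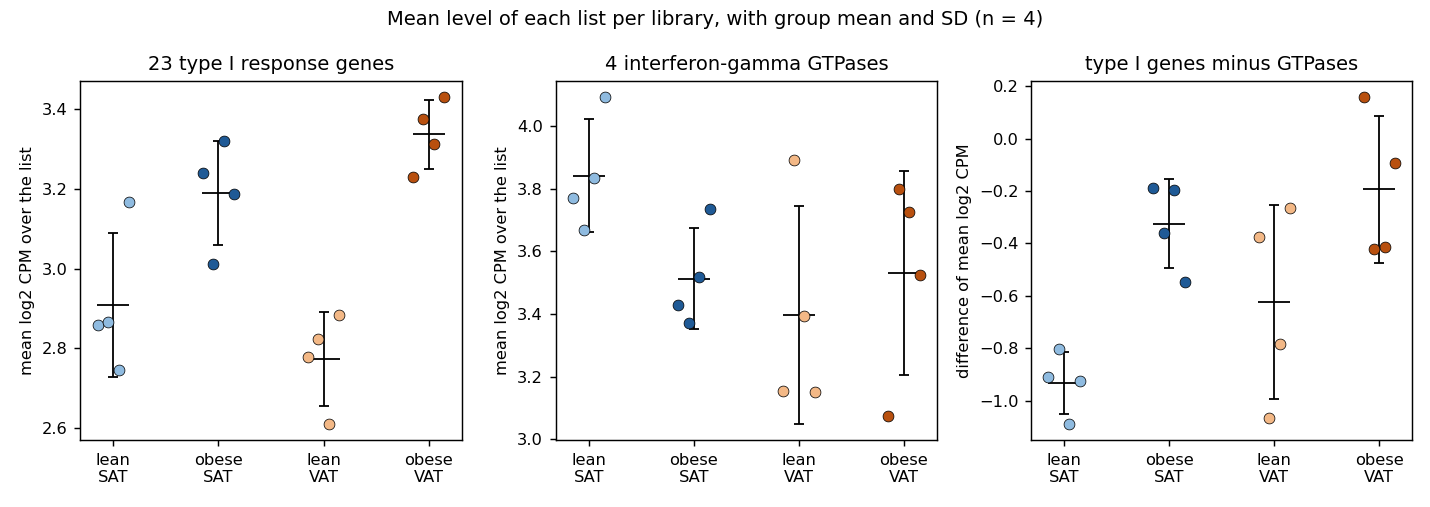
Mean log2 CPM per library over 23 type I response genes and over 4 GTPases, and the difference between both. Points are libraries and bars show mean ± SD of 4. The difference is higher in each obese SAT library than in each lean SAT library.

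The diet response itself was compared between the tissues, with the mouse as a block. Of the 36 genes, 1 (Igtp) had a diet response called higher in VAT than in SAT and 0 had one called lower by edgeR, by DESeq2 or at an unadjusted p below 0.05, against 0.888% and 1.29% of all entries. The diet response of Igtp was larger in VAT than in SAT by 0.98 ± 0.19 (SE, adjusted p = 0.00676) on the log2 scale. This call held without any mouse in turn, and without the mouse term the adjusted p was 0.0505 (range 0.00027 to 0.0505). Of the 23 type I response genes, 0 were called by edgeR and 4 had an unadjusted p below 0.05, as had 7.46% of all entries upward and 7.22% downward, so a difference between the tissues was not shown for any of them. For Oas3 the difference was 1.30 ± 0.54 (SE, adjusted p = 0.246), for Isg15 0.79 ± 0.31 (SE, adjusted p = 0.205), for Bst2 0.56 ± 0.19 (SE, adjusted p = 0.132) and for Zbp1 0.68 ± 0.28 (SE, adjusted p = 0.235). Among the related GTPases, Tgtp2 differed by 1.14 ± 0.24 (SE, adjusted p = 0.0137), a call that was lost without the mouse term and without lean replicate 3 (adjusted p = 0.0733).

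VAT was compared with SAT of the same mice within each diet. In lean mice, 3 of the 36 genes were higher in VAT (Ifi203, Ifi204 and Samhd1) and 1 was lower (Rsad2), against 7.98% and 6.84% of all entries. Without lean replicate 3, 2 were called. In obese mice, 8 were higher (Zbp1, Bst2, Gbp2, Igtp, Ifi203, Samhd1, Ifitm3 and Slfn2) and Rsad2 was lower, which are 22.2% and 2.78%, against 15.9% and 13.5% of all entries. Rsad2 was lower in VAT than in SAT of 4 of 4 lean mice and 4 of 4 obese mice, as were 17.8% and 22.5% of all entries, by log2 fold changes of -0.75 ± 0.15 (SE, adjusted p = 0.00092) and -0.69 ± 0.14 (SE, adjusted p = 0.00064). Ifi203 was higher in VAT of 4 of 4 mice of each diet, as were 16.7% of all entries in lean and 22.9% in obese mice. It was 1.98, 4.21, 3.89 and 6.57 CPM in lean SAT and 14.0, 11.1, 8.87 and 10.8 CPM in lean VAT. In obese mice it was 5.75, 4.75, 9.21 and 8.07 CPM in SAT and 15.7, 15.8, 16.2 and 24.0 CPM in VAT. Its log2 fold changes between the tissues were 1.43 ± 0.27 (SE, adjusted p = 0.00051) in lean mice and 1.37 ± 0.23 (SE, adjusted p = 0.0001) in obese mice. Samhd1 was higher in VAT of each of the 8 mice as well, by 0.56 ± 0.17 (SE, adjusted p = 0.0307) in lean mice and 1.21 ± 0.17 (SE, adjusted p = 7.8e-06) in obese mice, and its call in lean mice was lost without lean replicate 1, 2 or 3. The second tested transcript of Samhd1 was not called, at 0.39 (adjusted p = 0.535) in lean and 0.14 (adjusted p = 0.762) in obese mice. Ifi204 was higher in VAT of lean mice by 1.58 ± 0.40 (SE, adjusted p = 0.00840), a call lost without lean replicate 2 or 3 (adjusted p up to 0.123).

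Several GTPases were higher in VAT than in SAT of obese mice. Igtp was higher in VAT of 4 of 4 obese mice, by a log2 fold change of 0.94 ± 0.14 (SE, adjusted p = 1.3e-05), but of 1 of 4 lean mice, where it was -0.03 ± 0.14 (SE, adjusted p = 0.918). Of the 13 tested GTPases of the wider list, 9 were higher in VAT of obese mice and 0 were lower, against 15.9% and 13.5% of all entries, with a median log2 fold change of 0.74. In lean mice 2 of the 13 were higher in VAT (Gbp8 and Gbp10), against 7.98% of all entries. The filter could be passed through VAT libraries alone, so these counts describe the genes tested and not the wider list. Irgm2 and Gbp5 were higher in VAT of obese mice by 0.68 ± 0.11 (SE, adjusted p = 6.1e-05) and 0.52 ± 0.12 (SE, adjusted p = 0.00272), and Tgtp1 and Tgtp2 by 1.32 ± 0.19 (SE, adjusted p = 1.4e-05) and 1.17 ± 0.17 (SE, adjusted p = 1.8e-05). Gbp2 was higher by 0.29 ± 0.11 (SE, adjusted p = 0.0465), a call that was lost in 11 of 16 alternatives, with an adjusted p from 0.0162 to 0.529, leaving out lean replicate 2, 3 or 4 or obese replicate 1, 2 or 3 among them. The summed markers of T and NK cells, which make interferon-gamma, were higher in VAT than in SAT of obese mice (53.8 to 95.8 against 10.8 to 25.1 CPM) and of lean mice (19.2 to 32.5 against 6.73 to 13 CPM). In obese mice, macrophage genes (4401 to 6795 against 1924 to 2867 CPM) and B cell genes (245 to 457 against 7.81 to 14.3 CPM) summed to more in VAT as well. The part of these cells in the differences between the tissues was not tested. Slfn2, Zbp1, Bst2 and Ifitm3 were higher in VAT of obese mice by 0.97 (adjusted p = 0.00014), 0.64 (adjusted p = 0.0107), 0.46 (adjusted p = 0.00999) and 0.44 (adjusted p = 0.0145). With no filter on low counts the calls of Zbp1, Bst2 and Ifitm3 were lost (adjusted p up to 0.149, for Bst2), and that of Zbp1 also without the mouse term or with counts summed per symbol. The calls of Zbp1 and Ifitm3 were both lost without obese replicate 2 or 4 (adjusted p up to 0.103 and 0.118), with ranges of 0.00392 to 0.103 and 0.00034 to 0.118 over the alternatives.

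The ligands of the pathway were barely counted. Of 20 type I and type III interferon genes listed, 5 had at least 1 count, and they held 26 counts in the 16 libraries together, 19 of them on Ifnk. Interferon-gamma itself (Ifng) had 5 counts in lean SAT, 22 in obese SAT, 6 in lean VAT and 27 in obese VAT over 4 libraries each, and its log2 fold changes of 1.5 ± 0.98 (SE, adjusted p = 0.364) in SAT and 2.11 ± 0.96 (SE, adjusted p = 0.180) in VAT were not called. The receptor subunits Ifnar1 and Ifnar2 were 43.4, 38.1, 41.7 and 51.7 and 31.9, 29.9, 39.2 and 40.5 CPM in lean SAT and were not called in either diet comparison. Ifngr2 rose in VAT by 0.51 ± 0.14 (SE, adjusted p = 0.0193), a call lost without lean replicate 1 or obese replicate 2, 3 or 4 (adjusted p up to 0.0854).

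Of 82 further genes of the pathway, 42 were tested. In SAT, 3 rose and 4 fell (7.14% and 9.52%), against 6.21% and 4.84% of all entries. In VAT, 9 rose and 1 fell (21.4% and 2.38%), against 6.84% and 4.08%. The 9 include Ciita, which was tested only because of its obese libraries. The endosomal nucleic acid receptor Tlr9 rose in both tissues, by 1.14 ± 0.24 (SE, adjusted p = 0.00362) in SAT and 1.51 ± 0.24 (SE, adjusted p = 0.00018) in VAT. Tlr7, a receptor of single-stranded RNA, was 3.18, 6.08, 4.17 and 5.39 CPM in lean VAT, against 19.1, 12.9, 13.2 and 17.8 CPM in obese VAT, a log2 fold change of 1.62 ± 0.24 (SE, adjusted p = 7.7e-05), and it was not called in SAT, at 0.48 (adjusted p = 0.219). The kinase Tbk1, which activates IRF3, rose in SAT by 0.44 ± 0.10 (SE, adjusted p = 0.00805), a call that was lost with no filter on low counts (adjusted p = 0.0740). In the signalling group, Stat3 rose in SAT with a log2 fold change of 0.63 (adjusted p = 0.0117) and Jak1 fell with one of -1.05 (adjusted p = 0.0322), and the feedback inhibitor Socs3 rose in VAT, at 0.82 (adjusted p = 0.0253). Stat3 was lost without obese replicate 1 (adjusted p = 0.0505), while Jak1 and Socs3 were each lost by leaving out 6 of the 8 mice in turn (adjusted p up to 0.134 and 0.0839).

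Of 10 tested interferon-gamma targets that are not GTPases, 5 rose and 1 fell in VAT, against 6.84% and 4.08% of all entries. The 5 include Ciita, which had 1 lean and 3 obese libraries over 1 CPM and was tested only because of its obese libraries. Psmb8, a catalytic subunit of the immunoproteasome, was 86.0, 96.9, 106 and 93.5 CPM in lean VAT, against 181, 175, 170.0 and 186 CPM in obese VAT. Its log2 fold change was 0.89 ± 0.11 (SE, adjusted p = 5.6e-06) in VAT and 0.14 ± 0.10 (SE, adjusted p = 0.447) in SAT, and the diet response differed between the tissues by 0.76 ± 0.15 (SE, adjusted p = 0.00625), a call that was lost with no filter on low counts (adjusted p = 0.0771). The peptide transporter subunit Tap1 and the proteasome subunit Psmb10 rose in VAT too, by 0.78 ± 0.18 (SE, adjusted p = 0.00519) and 0.81 ± 0.24 (SE, adjusted p = 0.0326). The chemokine gene Cxcl9 rose in VAT, at 0.71 (adjusted p = 0.0136), and Cxcl11 fell, at -1.13 (adjusted p = 0.0255). Ciita, the activator of MHC class II genes, was 1.91, 0.477, 0.214 and 0.440 CPM in lean VAT, against 0.382, 1.40, 1.62 and 4.27 CPM in obese VAT, with overlap, and its log2 fold change of 2.05 ± 0.64 (SE, adjusted p = 0.0438) had an adjusted p of 0.0736 with the replicate number as a block. The calls of Psmb10, Cxcl9, Cxcl11 and Ciita were lost by leaving out 6, 3, 3 and 6 of the 8 mice in turn, with adjusted p up to 0.136, 0.0594, 0.118 and 0.291.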

How the data were processed

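Per the labels, the authors checked reads with FastQC 0.11.9, trimmed them with Trim Galore 0.6.6, aligned them to GRCm39 with HISAT2 2.2.0 and counted them with HTSeq 0.13.5. The deposited table holds raw counts and CPM in 32 columns, all of which were mapped to libraries. The deposited CPM equal the counts scaled to each library's total. The strand setting and the treatment of shared reads are not given in the sources used here. Gene spans are those of GENCODE M39.

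Counts were tested here by the quasi-likelihood F-test of edgeR (version 4.0.16, R version 4.3.3) after TMM scaling, with legacy=TRUE. P-values were adjusted by Benjamini-Hochberg over the 13288 entries with CPM above 1 in at least 3 of 16 libraries, and genes were called at an adjusted p below 0.05. Diets were compared within a tissue over all 16 libraries, and tissues with the mouse as a block. The 24 pairs of libraries within groups correlated at 0.947 to 0.989 and differed by more than counting noise (chi-square per degree of freedom at least 7.94). Deviations of both libraries of a mouse correlated at -0.019 to 0.233 (8 pairs). Deviations of lean and obese libraries with the same replicate number, which are different animals, correlated at -0.122 to 0.065 in SAT and at 0.106 to 0.227 in VAT. The highest value in VAT was that of replicate 1, the shallowest VAT library of each diet. Lean and obese libraries with different numbers were not compared, so no pairing is read from these values. The depth in counts limits genes under 1 CPM.

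The genes and gene lists were chosen with earlier results of these data known. Genes named with values are those called in a diet comparison or in its difference between tissues, the 6 GTPases, the entry of each type I family with the most counts, and pathway genes called in a diet comparison. Ifng, Ifnar1, Ifnar2, Ifi47, Irf7, Irf8, Irf9, Ifi203, Dhx58, Ifih1, Irgm2, Gbp5 and the cell type markers were named beyond this rule after their values were seen. The tests were tested on simulated data, and 23 alternatives were run (19 of them for single genes), with DESeq2 1.42.0 and limma 3.58.1 among them.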

Additional observations from a re-analysis of the deposited data

Results flagged for a closer look

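Of 144 sets of 4 libraries (36 genes in 4 groups), 14 held a library far from the other 3 by Dixon's test, and the gap to the nearest library is given as a share of the range of the set. Chance flags about 1 in 20 sets, which would be 7.2 here. In lean SAT, replicate 4 was high for Irf7 (gap 0.866 of the range) and Irf8 (0.896). In obese SAT, replicate 1 was high for Ifi35 (0.963) and low for Bst2 (0.874), and replicate 2 was low for Igtp (0.891) and Slfn2 (0.917). In lean VAT, replicate 1, the shallowest library, was high for Irf7 (0.899), Parp14 (0.851), Irf8 (0.964) and Samhd1 (0.86). In obese VAT, replicate 1 was low for Usp18 (0.833) and high for Irf1 (0.843), and replicate 4 was high for Ifi203 (0.931) and Samhd1 (0.886).

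The diet response differed between VAT and SAT by a test of the difference itself for Igtp (0.98 on the log2 scale, higher in VAT), Tgtp2 (1.14) and Psmb8 (0.76). Without the mouse term the calls of Igtp and Tgtp2 were lost, and with no filter on low counts that of Psmb8.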

How the results depend on the processing

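Of 61 results for single genes under up to 18 alternatives each, 1058 values in all, 910 kept their side of the threshold, 148 lost significance and 0 gained it. Of the called results, 0 reversed direction. Results that were not called could change sign, as Gbp3 did in VAT, with log2 fold changes from -0.39 to 1.22. Apart from results of Gbp2, Gbp3, Igtp and Irgm1, the 61 were included because they were called, so they could only keep or lose significance. Genes called only under an alternative are not among them. Beyond leaving out a mouse, the counts of called genes moved by more than 1.5 times in VAT against SAT of obese mice with no filter on low counts (5, against 9) and in the diet response between tissues with no mouse term (0 by edgeR, with 6 at an unadjusted p below 0.05, against 1). The share of all entries called fell too. With no filter it was 4.03% higher and 4.27% lower of 43411 entries, against 15.9% and 13.5%. With no mouse term it was 0.346% and 0.617%, against 0.888% and 1.29%. In SAT, the shift between type I response genes and GTPases was 0.38 with no filter and 0.79 with medians, against 0.61. The cause was not tested.

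Without 1 mouse in turn, the counts ranged from 2 to 7 in SAT, 5 to 13 in VAT, 2 to 5 between tissues of lean mice, 6 to 10 between tissues of obese mice and 1 to 1 for the diet response between tissues. The shifts between both gene groups were 0.56 to 0.68 (SAT) and 0.28 to 0.55 (VAT). With the replicate number as a block, 8 genes were called in SAT and 9 in VAT (of all entries, 6.9% and 7.38% were higher and 5.3% and 4.78% lower). With no mouse term, 4 were called between tissues of lean mice and 8 of obese mice (7.38% and 15.6% of all entries higher, 6.0% and 12.4% lower). Without the shallow VAT libraries of lean and obese replicate 1, an alternative chosen after seeing the data, the counts were 8 in SAT and 11 in VAT (7.4% and 7.48% of all entries higher, 6.76% and 4.84% lower). With no filter on low counts, calls were lost for Oas1a, Rtp4, Igtp, Jak1, Stat3 and Tbk1 in SAT, for Isg15, Oas1a, Samhd1 and Ifngr2 in VAT, for Samhd1 between tissues of lean mice, for Zbp1, Bst2, Gbp2 and Ifitm3 between tissues of obese mice, and for Psmb8 in the diet response between tissues. Depth limits genes near 1 CPM, such as Gbp3, Irgm1, Irf1 and Irf9.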
